A study of Homo sapiens with 8 samples.

Results

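NADPH oxidases are membrane enzymes that pass electrons from NADPH to oxygen and so make superoxide or hydrogen peroxide. The 7 genes described here are NOX1, NOX4, NOX5, CYBB, DUOX1 and DUOX2, which encode catalytic subunits, and CYBA, which encodes p22phox, the membrane partner that the NOX1, CYBB and NOX4 enzymes need. They were chosen by symbol from the count tables, which list 58828 genes, and all 7 were found. NOX5 and the DUOX enzymes are activated by calcium, whereas the CYBB and NOX1 enzymes depend on cytosolic organizer and activator proteins and on a Rac GTPase. In epithelia these enzymes are known for redox signalling, and CYBB (also called NOX2) is known for the oxidative burst of phagocytes.

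The cells were 22RV1 and DU145, established lines from human prostate cancer. Each line was transduced with a lentiviral, doxycycline-inducible pLVX-TetOne-Puro vector, either empty or carrying PAGE4 with an HA tag, and was selected with puromycin. Every culture, controls included, received doxycycline, and PBS or H2O2 was added for the last 12 h, at a dose the labels give as 200 mM. A lower dose is named elsewhere in the study for another assay, so the dose behind these libraries is uncertain. There were 8 conditions with 1 library each, so no pair of conditions has a replicate check, and the labels do not say which libraries came from separate cultures.

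Total counts per library ranged from 25482984 to 43310401. PAGE4 had at most 1 read in the 4 vector libraries and from 1001 to 1489 reads in the 4 PAGE4 libraries. The luminal prostate markers KLK3, KLK2, HOXB13, TMPRSS2 and FOLH1 summed to 179 to 422 CPM (counts divided by the library total and scaled to 1000000) in 22RV1 cells and to 0.115 to 0.266 CPM in DU145 cells. The epithelial markers EPCAM, KRT8 and KRT18 summed to 973 to 2445 CPM over the 8 libraries. As these are bulk samples, fewer cells with a transcript and less transcript per cell cannot be told apart.

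The H2O2, PAGE4 and cell line differences were each tested over the 4 matched pairs of libraries with edgeR's quasi-likelihood test, and adjusted p-values are Benjamini-Hochberg values over the 22418 genes tested. NOX4 was too weak to be tested, so 6 of the 7 members entered these fits. The H2O2, PAGE4 and line comparisons draw on the same 8 libraries and are not independent of each other.

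The family was weakly transcribed in both lines, with the exception of CYBA in DU145 cells. Its 7 members together held 10.0 to 14.8 CPM in the 22RV1 libraries and 39.0 to 55.6 CPM in the DU145 libraries. Levels of different genes were compared as CPM per kilobase of exon. In 22RV1 cells the order was NOX5 with a mean of 0.520, CYBA 0.470, DUOX1 0.275, NOX1 0.215, CYBB 0.203 and DUOX2 0.0332 CPM per kilobase (n = 4 libraries). From NOX5 down to CYBB, the ranges of neighbouring genes overlapped, and DUOX2 and NOX4 were each apart from the gene above. In DU145 cells CYBA led with a mean of 8.69 and a range of 7.21 to 11.1 CPM per kilobase, apart from DUOX1 at 0.663. Below them came CYBB at 0.345 and NOX1 at 0.315, whose ranges overlapped, and then DUOX2 at 0.0767 and NOX5 at 0.0313, whose ranges also overlapped. By these means NOX5 was first in 22RV1 cells and next to last in DU145 cells. The length used is the union of all annotated exons, 12233 bases for NOX5 and 4161 for CYBA, so the order of different genes depends on the annotation.

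**Figure D1:**
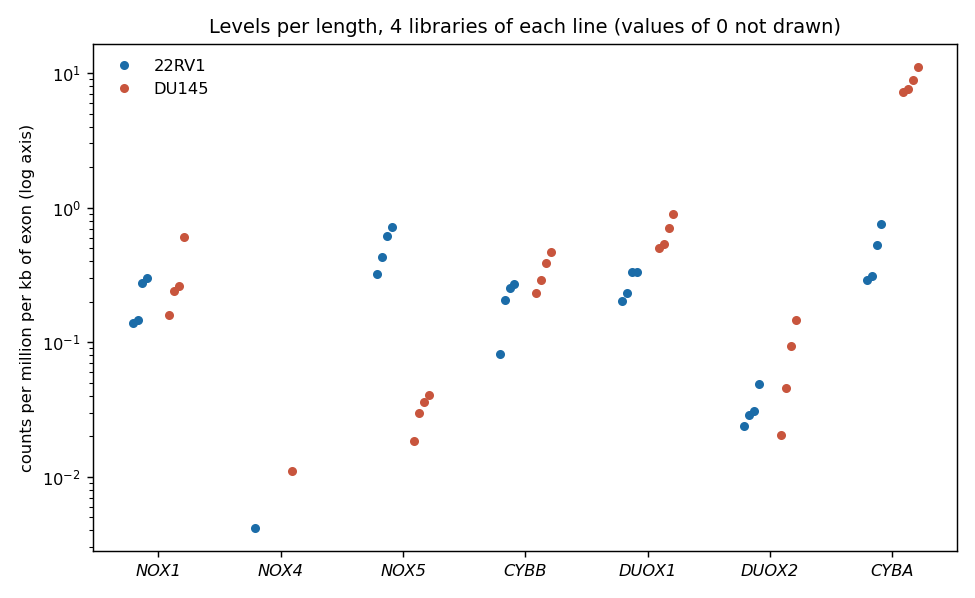
Each point is 1 library, with CPM per kilobase of exon on a log axis and the 4 libraries of a line in one colour; libraries at 0 are not drawn. CYBA of DU145 cells lies above all other values, between 7.21 and 11.1, and NOX5 of DU145 cells lies below its 22RV1 values.

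NOX4, the constitutively active member, was at 0 in 6 of the 8 libraries. It had 1 read in 22RV1 PAGE4 cells with PBS and 2 reads in DU145 PAGE4 cells with PBS. A count of 0 allows up to 3 reads, which is 0.0693 to 0.118 CPM depending on the library, so no difference in NOX4 was detectable at this depth.

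The lines differed in 4 of the 6 members tested, of which CYBA, DUOX1 and CYBB were higher and NOX5 was lower in DU145 cells. Across all genes tested, 60.5% passed the same test, so a line difference was common in these libraries. The 4 libraries of a line are 4 different conditions, not replicates, so the SD and p-values given here measure the spread between these libraries. Differences between the lines and between their transduced cultures cannot be told apart. CYBA lies on chromosome 16 of GRCh38 from 88643275 to 88651083 on the minus strand. Its level in 22RV1 cells was 1.20 CPM in vector cells with PBS, 2.18 with H2O2, 1.30 in PAGE4 cells with PBS and 3.14 with H2O2. In DU145 cells the corresponding values were 37.1, 30.0, 46.1 and 31.5 CPM. All 4 DU145 libraries were thus above all 4 22RV1 libraries, with means of 36.2 ± 7.28 and 1.96 ± 0.904 CPM (SD, n = 4). The fitted difference was 22.3-fold (log2 4.48, SE 0.32, adjusted p = 1.08e-05, edgeR).

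NOX5, a calcium-activated oxidase with EF-hand domains, showed the opposite order. It lies on chromosome 15 from 69014695 to 69062762 on the plus strand. In 22RV1 cells it had 378 reads in vector cells with PBS, 135 with H2O2, 297 in PAGE4 cells with PBS and 133 with H2O2. In DU145 cells it had 11, 13, 13 and 6 reads in the same order. The ranges did not overlap, with means of 6.36 ± 2.18 and 0.382 ± 0.117 CPM (SD, n = 4), and the level in DU145 cells was 14.1-fold lower (log2 -3.82, SE 0.35, adjusted p = 4.11e-05, edgeR). In the GENCODE annotation, 72.1% of the NOX5 exon bases are shared with a readthrough gene on the same strand that starts at SPESP1, a sperm protein gene upstream, so counts of NOX5 depend on how shared bases were assigned. SPESP1 itself had 207 to 399 reads in the 4 22RV1 libraries and 0 to 2 reads in the 4 DU145 libraries, and the part of readthrough transcripts in the NOX5 counts was not tested.

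DUOX1, a dual oxidase of epithelial surfaces that releases hydrogen peroxide, was 2.76-fold higher in DU145 cells (log2 1.46, SE 0.21, adjusted p = 0.000497, edgeR). Its levels ran from 1.77 to 2.93 CPM in 22RV1 cells and from 4.44 to 7.90 CPM in DU145 cells and did not overlap. CYBB was 2.01-fold higher in DU145 cells (log2 1.00, SE 0.37, adjusted p = 0.0450, edgeR), with levels of 0.392 to 1.29 CPM against 1.11 to 2.26 CPM, so that the ranges overlapped. The CYBB call was lost when the PAGE4 H2O2 pair, the PAGE4 PBS pair or the Vector PBS pair was left out (adjusted p = 0.137, 0.113 and 0.112, edgeR) and with total counts as library sizes (adjusted p = 0.0936, edgeR). NOX1 (log2 0.68, SE 0.48, adjusted p = 0.257) and DUOX2 (log2 1.14, SE 0.60, adjusted p = 0.131) did not pass in edgeR.

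**Figure D2:**
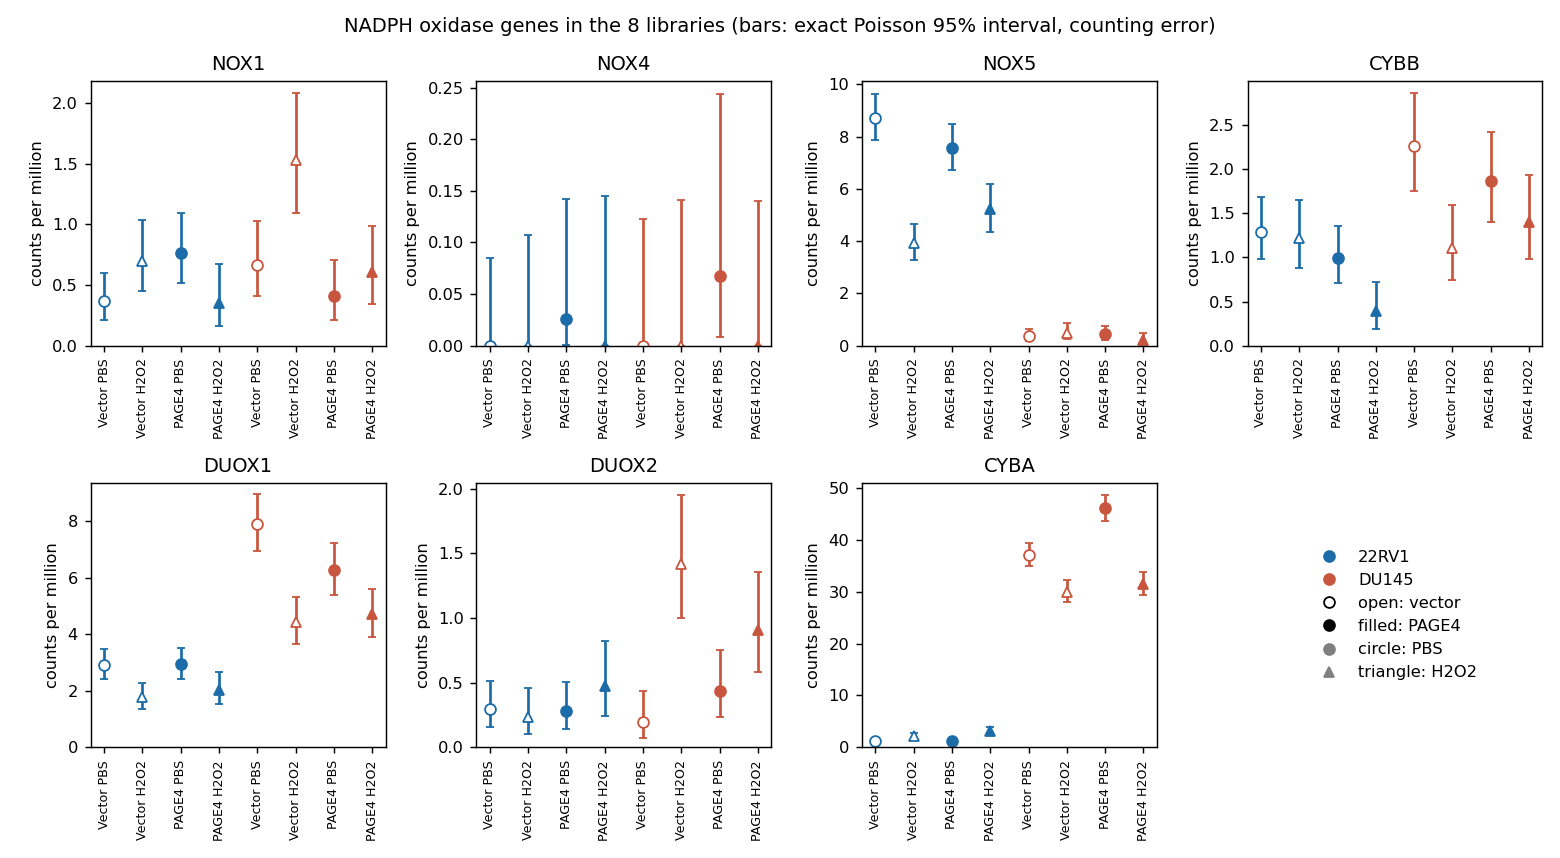
Each panel shows the CPM of 1 gene in the 8 libraries, with 22RV1 in blue, DU145 in red, open symbols for vector, filled symbols for PAGE4, circles for PBS and triangles for H2O2; bars are exact Poisson 95% intervals and cover counting error only. CYBA sits at 30.0 CPM or more in every DU145 library and at 3.14 CPM or less in every 22RV1 library, and the order is turned for NOX5.

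Because CYBB is a phagocyte gene, 7 phagocyte and leukocyte markers were read beside it. PTPRC, the pan-leukocyte marker, had 0 to 10 reads per library, MPO had 0 to 3, LYZ had 0 to 6 and SPI1 had 0 to 20. The monocyte and macrophage markers had more, with 2 to 44 reads for CD14 and 14 to 75 for CSF1R, and CSF1R was higher in DU145 cells (log2 1.41, SE 0.45, adjusted p = 0.0253, edgeR). Summed over the 7 markers, the level was 1.45 to 3.43 CPM in 22RV1 cells and 1.10 to 5.91 CPM in DU145 cells. In DU145 cells the sum was higher with H2O2 (4.56 and 5.91 CPM) than with PBS (1.10 and 1.42 CPM), where ITGAM had 54 and 51 against 3 and 0 reads, while CYBB had fewer reads with H2O2 than with PBS in both DU145 pairs. The part of such cells or genes in the CYBB counts was not tested.

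Promoters of members that the comparisons turn on are given so that their base composition can be read beside the levels. All 7 members matched the RefSeq promoter table of GRCh38.p14, which spans 250 bases before to 50 bases after a gene start. Written 5' to 3' on the strand of the gene, CYBA is chr16:88651004-88651303 (minus), DUOX1 is chr15:45129744-45130043 (plus), NOX5 is chr15:69014445-69014744 (plus) and DUOX2 is chr15:45114123-45114422 (minus). Capitals mark matches on either strand to a GC box (GGGCGG) or a TATA element (TATAAA).
CYBA: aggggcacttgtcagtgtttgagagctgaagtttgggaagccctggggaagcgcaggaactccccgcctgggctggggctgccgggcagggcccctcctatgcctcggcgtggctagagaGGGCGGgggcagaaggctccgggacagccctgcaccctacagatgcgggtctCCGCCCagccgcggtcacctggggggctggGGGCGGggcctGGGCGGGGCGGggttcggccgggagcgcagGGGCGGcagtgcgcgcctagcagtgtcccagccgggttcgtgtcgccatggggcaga
DUOX1: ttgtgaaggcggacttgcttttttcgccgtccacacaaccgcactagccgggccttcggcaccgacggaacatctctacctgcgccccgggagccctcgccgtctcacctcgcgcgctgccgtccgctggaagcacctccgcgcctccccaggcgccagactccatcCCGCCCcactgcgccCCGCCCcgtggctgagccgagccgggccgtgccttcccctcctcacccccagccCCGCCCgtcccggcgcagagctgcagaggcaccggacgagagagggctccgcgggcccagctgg
NOX5: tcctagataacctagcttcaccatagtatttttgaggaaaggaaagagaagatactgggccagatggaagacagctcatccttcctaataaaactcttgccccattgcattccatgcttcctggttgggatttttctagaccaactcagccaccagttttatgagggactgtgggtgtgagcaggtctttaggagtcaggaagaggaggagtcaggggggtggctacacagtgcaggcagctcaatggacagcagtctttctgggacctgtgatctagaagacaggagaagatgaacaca
DUOX2: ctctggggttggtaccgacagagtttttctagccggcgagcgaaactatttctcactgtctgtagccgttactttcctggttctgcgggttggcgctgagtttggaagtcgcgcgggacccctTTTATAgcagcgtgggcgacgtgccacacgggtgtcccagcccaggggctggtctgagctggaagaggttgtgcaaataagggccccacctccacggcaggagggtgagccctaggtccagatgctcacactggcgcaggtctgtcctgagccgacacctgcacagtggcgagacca

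The CYBA promoter had 72.7% G and C, 23 CpG dinucleotides and 6 GC boxes, of which a pair overlaps. DUOX1 had 73.0% G and C, 35 CpG and 3 GC boxes. NOX5 had 48.0% G and C, no CpG and no GC box, and the promoters of CYBB and NOX1 had 37.7% and 40.3% G and C with 1 CpG each. For NOX4, which was too weak to be tested, a window had 71.3% G and C, 28 CpG and 1 GC box. Its other windows had 40.7% and 30.3% G and C with 2 CpG each. The window of SPESP1, upstream of NOX5, had 75.0% G and C, 37 CpG and 4 GC boxes. A link between composition and level was not tested. The median over all 35116 promoters was 58.7% G and C and 14 CpG, and 45.0% of them hold a GC box. DUOX2 had 60.3% G and C, 18 CpG and 1 TATA match, which 11.5% of all promoters hold on either strand. This match reads TATAAA on the strand opposite to DUOX2, which is the strand of DUOXA2, and the DUOXA2 window holds it too. The AP-1 letters TGANTCA, present in 7.7% of all promoters, and the NRF2 letters TGACNNNGC, present in 13.3%, were not found on either strand in the windows of CYBA, CYBB, NOX1, NOX5, DUOX1 or DUOX2. The gene starts of DUOX1 and of its maturation factor gene DUOXA1 lie 5 bases apart on opposite strands, and those of DUOX2 and DUOXA2 lie 154 bases apart, so each pair shares a promoter region.

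Treatment with H2O2 was compared with PBS within each line and construct, which asks how an external oxidant moved the genes of the cells' own oxidases. Among the members, 1 of 6 tested passed over the 4 pairs in edgeR, DUOX1, which fell, while 20.1% of all genes tested passed (1994 higher and 2512 lower). With total counts as library sizes, this split over all genes turned to 2809 higher and 1795 lower. The median log2 difference of the 6 members was -0.31, beside -0.03 over all genes.

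DUOX1 was lower with H2O2 in all 4 pairs. In 22RV1 cells it had 2.91 CPM with PBS and 1.77 with H2O2 in vector cells, and 2.93 and 2.04 CPM in PAGE4 cells. In DU145 cells it had 7.90 and 4.44 CPM in vector cells, and 6.25 and 4.70 CPM in PAGE4 cells. Within each line both H2O2 libraries were below both PBS libraries. The fitted level was 1.64-fold lower (log2 -0.71, SE 0.19, adjusted p = 0.0364, edgeR), and the log2 ratios of the single pairs ran from -0.86 to -0.41, each with a 95% counting interval below 0. The call was lost whichever pair was left out, with an adjusted p of 0.0725 without 22RV1 PAGE4, 0.117 without 22RV1 Vector, 0.0838 without DU145 PAGE4 and 0.162 without DU145 Vector (edgeR), nor with total counts as library sizes (adjusted p = 0.0577, edgeR). Reads of DUOX1 can also be affected by an antisense lncRNA that covers 6.3% of its exon bases, since the strand setting of the counting is not given in the sources used here.

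CYBA differed in direction between the 2 lines. In 22RV1, raw counts with PBS and H2O2 were 52 and 75 with the vector and 51 and 80 with PAGE4. In DU145 they were 1116 and 784 with the vector and 1364 and 832 with PAGE4. After division by size factors, the log2 ratio of H2O2 over PBS was 0.75 (95% counting interval 0.23 to 1.29) and 1.15 (0.62 to 1.68) in the 22RV1 pairs. In the DU145 pairs it was -0.33 (-0.47 to -0.20) and -0.55 (-0.68 to -0.42). The H2O2 effect differed between the lines by -1.43 on the log2 scale in DU145 against 22RV1 cells (SE 0.25, adjusted p = 0.00074, edgeR), where 16.3% of all genes passed. It kept that sign and passed with each pair left out, with differences from -1.59 to -1.17 and adjusted p-values from 1.53e-05 to 0.00699 (edgeR). Averaged over both lines, the H2O2 effect on CYBA was 0.10 (log2, SE 0.28, adjusted p = 0.844, edgeR). The other 5 members did not pass this test of the line difference in H2O2 effect, with adjusted p-values from 0.286 to 0.992 (edgeR).

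**Figure D3:**
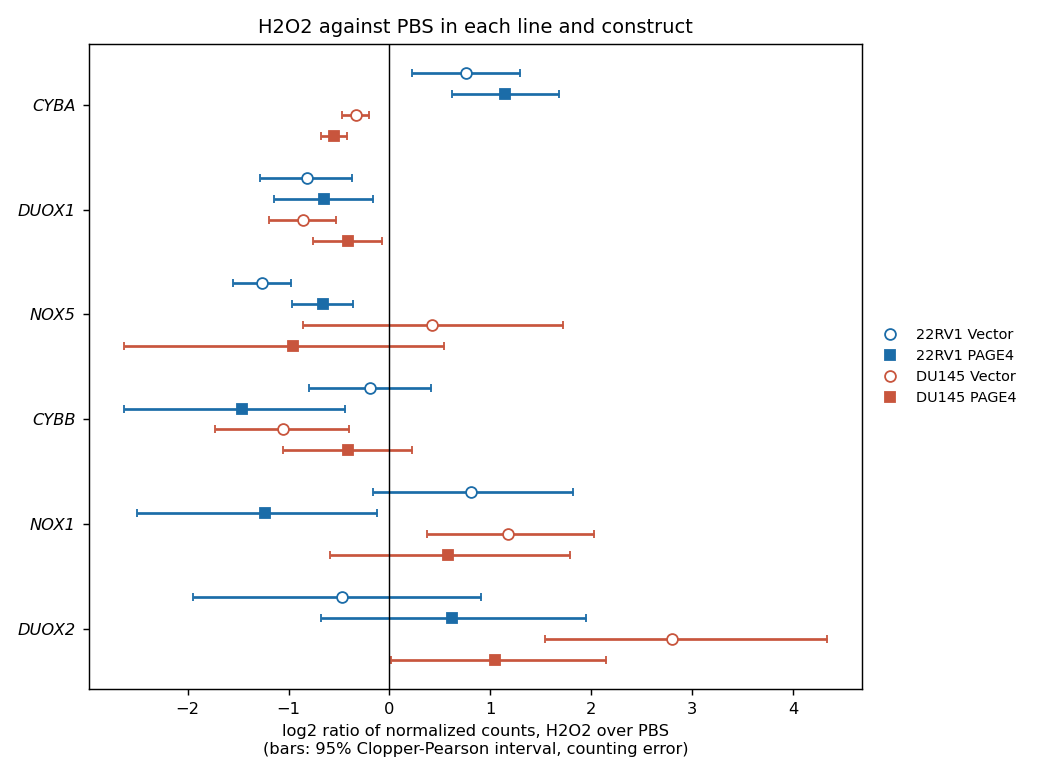
Points give the log2 ratio of size-factor normalized counts, H2O2 over PBS, for each member in the 4 pairs, with 95% Clopper-Pearson intervals that cover counting error only. The CYBA points of 22RV1 (0.75 and 1.15) and of DU145 (-0.33 and -0.55) lie on opposite sides of 0, and all 4 DUOX1 points lie below 0.

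NOX5 and CYBB had point estimates near that of DUOX1 without passing. For NOX5 the fitted log2 difference was -0.74 (SE 0.30, adjusted p = 0.121, edgeR). In 22RV1 cells, where NOX5 is well covered, the log2 ratios were -1.26 (95% counting interval -1.55 to -0.97) in vector cells and -0.66 (-0.97 to -0.36) in PAGE4 cells. In DU145 cells, with 6 to 13 reads per library, they were 0.42 (-0.86 to 1.72) and -0.95 (-2.63 to 0.54), which do not exclude 0.

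For CYBB the fitted log2 difference was -0.76 (SE 0.31, adjusted p = 0.127, edgeR). Its counts with PBS and H2O2 were 56 and 42 for the vector and 39 and 10 for PAGE4 in 22RV1 cells, and 68 and 29 for the vector and 55 and 37 for PAGE4 in DU145 cells. All 4 ratios were below 1, and those of 22RV1 PAGE4 cells (log2 -1.46, interval -2.63 to -0.44) and DU145 vector cells (log2 -1.05, interval -1.73 to -0.41) had counting intervals below 0.

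NOX1, an oxidase of colon epithelium and smooth muscle, and DUOX2, the thyroid and mucosal dual oxidase, had few reads and uneven pairs. NOX1 counts with PBS and H2O2 were 16 and 24 for the vector and 30 and 9 for PAGE4 in 22RV1 cells, and 20 and 40 for the vector and 12 and 16 for PAGE4 in DU145 cells. The NOX1 level was thus higher with H2O2 in 3 pairs and lower in 22RV1 PAGE4 cells, where the log2 ratio was -1.24 (95% counting interval -2.50 to -0.13). DUOX2 counts with PBS and H2O2 were 13 and 8, 11 and 12, 6 and 37, and 13 and 24 in the same order of pairs. In DU145 vector cells the normalized DUOX2 count was 6.97-fold higher with H2O2 (log2 2.80, interval 1.54 to 4.34), and in DU145 PAGE4 cells the log2 ratio was 1.05 (0.02 to 2.15). Neither gene passed over the 4 pairs (NOX1 log2 0.35, SE 0.48, adjusted p = 0.648; DUOX2 log2 0.98, SE 0.57, adjusted p = 0.273, edgeR). DUOX1 and DUOX2 share 450 stretches of 50 bases, which is 4.94% of those in DUOX1 and 4.49% of those in DUOX2, so a small part of their reads cannot be assigned to either gene by sequence, and no other pair of members shares any.

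By the fold change limit of 1.5 that the study used, applied to genes with a mean of at least 10 normalized counts in the line, 6 members could be called in each pair. With H2O2, 4 of the 6 members passed it in 22RV1 vector cells (NOX1, NOX5, CYBA and DUOX1), where 37.8% of all genes did. All 6 passed in 22RV1 PAGE4 cells, where 30.8% of genes did. Of these, NOX5 (7.57 CPM with PBS and 5.22 with H2O2) and DUOX1 (2.93 and 2.04 CPM) stayed under the limit by CPM, which use total counts. The DUOX2 call there rested on 11 reads with PBS and 12 with H2O2. In DU145 vector cells 4 passed (NOX1, CYBB, DUOX1 and DUOX2) beside 40.7% of genes, and in DU145 PAGE4 cells 2 passed (NOX5 and DUOX2) beside 41.6%. These calls have no replicate check, and several rest on fewer than 50 reads.

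PAGE4, a stress-response protein of the prostate, was compared with empty vector within each line and treatment, which is the comparison the study was built on. None of the 6 members tested passed over the 4 pairs in edgeR, none had an unadjusted p under 0.05, and none was called by DESeq2's Wald test. The PBS and H2O2 pairs of a line draw on that line's selected vector and PAGE4 cells, so the 4 pairs may not be independent. An effect of PAGE4 and a difference between the selected populations cannot be told apart. Over all genes, 0.174% passed (39 of 22418). The nearest was CYBA, which was higher in PAGE4 cells in all 4 pairs, with a fitted log2 difference of 0.25 (SE 0.12, unadjusted p = 0.0597, adjusted p = 0.679, edgeR). Its single log2 ratios were 0.15 (95% counting interval -0.44 to 0.73) and 0.54 (0.07 to 1.02) in 22RV1 cells with PBS and H2O2, and 0.31 (0.19 to 0.42) and 0.09 (-0.05 to 0.23) in DU145 cells.

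NOX1 was among the genes the study named from these libraries for its difference between PAGE4 and vector cells under H2O2, so that contrast is given as a description. With H2O2, NOX1 had 24 reads in vector and 9 reads in PAGE4 cells of 22RV1, and 40 and 16 reads in DU145. The log2 ratios of normalized counts were -0.97 (95% counting interval -2.26 to 0.19) and -1.32 (-2.25 to -0.45). With PBS, which the choice did not use, the log2 ratio was 1.08 (0.16 to 2.06) in 22RV1 cells, with 16 reads in vector and 30 in PAGE4 cells, and -0.72 (-1.88 to 0.38) in DU145 cells, with 20 and 12 reads. NOX1 was therefore higher in PAGE4 cells in 1 pair and lower in 3, and the fitted log2 difference was -0.48 (SE 0.47, adjusted p = 0.887, edgeR).

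CYBB was lower in PAGE4 cells of 22RV1 with H2O2 (10 against 42 reads, log2 ratio -1.62, 95% counting interval -2.78 to -0.60), while its other 3 intervals included 0. Over the 4 pairs its fitted log2 difference was -0.42 (SE 0.33, adjusted p = 0.842, edgeR). The fitted log2 differences of DUOX1 (-0.02, SE 0.18), NOX5 (-0.01, SE 0.25) and DUOX2 (0.25, SE 0.49) were smaller than their standard errors. For each of these genes the single pairs went in both directions. Normalized NOX5 counts of 22RV1 vector and PAGE4 cells were 311 and 277 with PBS, and 130 and 175 with H2O2. Normalized DUOX1 counts of DU145 vector and PAGE4 cells were 221 and 174 with PBS, and 122 and 131 with H2O2. The PAGE4 effect did not differ between the lines for any member (smallest adjusted p = 0.619, CYBB, edgeR; 0 of 6 at an unadjusted p under 0.05, and 0 by DESeq2), where 1.84% of all genes passed.

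By the 1.5-fold limit, PAGE4 and vector cells differed in 1 of the 6 members in 22RV1 cells with PBS (NOX1), beside 20.0% of all genes. With H2O2, 3 members passed in 22RV1 cells (NOX1, CYBB and DUOX2), beside 23.5% of genes. In DU145 cells 2 passed with PBS (NOX1 and DUOX2), beside 15.6%, and 3 with H2O2 (NOX1, NOX5 and DUOX2), beside 15.5%. NOX1 passed the limit in all 4 pairs, but with opposite signs, and at 9 to 40 reads per library. DUOX2, with 6 to 37 reads, and NOX5 of DU145 cells, with 6 to 13, were as weak.

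**Figure D4:**
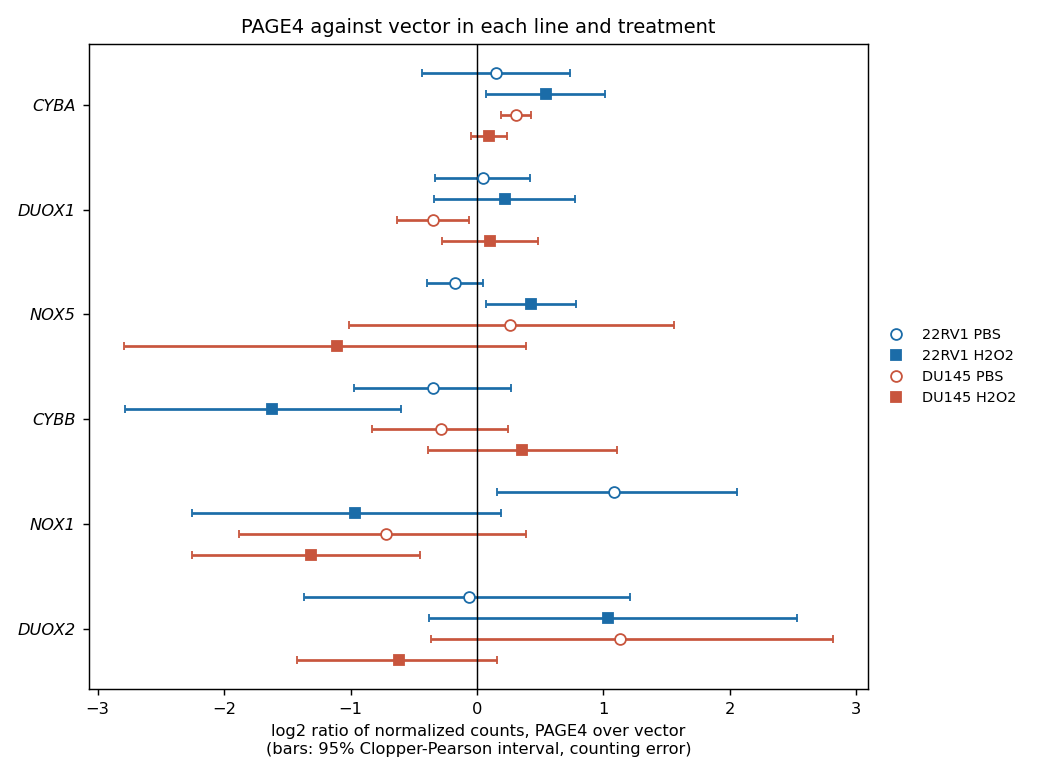
Points give the log2 ratio of size-factor normalized counts, PAGE4 over vector, for each member in the 4 pairs of line and treatment, with 95% Clopper-Pearson intervals for counting error. Most intervals include 0, and the NOX1 points lie on both sides of it, from -1.32 to 1.08.

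The partner proteins decide whether a catalytic subunit can work, and 15 of their genes were read from a list of organizers, activators, chaperones and accessory proteins. Of these, 13 had reads, and 11 could be tested. Among the organizers, NOXO1 was at 0 in all 8 libraries, which allows up to 3 reads per library, and so was NOX3, the inner ear oxidase kept on this list. NCF4 had 0 to 3 reads. NCF1, the p47phox organizer of CYBB, had 0, 14, 0 and 5 reads in 22RV1 cells (vector with PBS, vector with H2O2, PAGE4 with PBS, PAGE4 with H2O2) and 15, 15, 10 and 16 in DU145 cells. NCF1 shares 35.7% of its 50-base stretches with the pseudogene NCF1B and 23.2% with NCF1C, so its counts are uncertain.

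NOXA1, the activator of NOX1, was covered in every library, at 8.56 to 13.7 CPM. The maturation factors of the dual oxidases were weak: DUOXA1 had 1 to 9 reads in 22RV1 and 7 to 18 in DU145 cells, and DUOXA2 had 0 to 2 and 3 to 14. These 2 genes share 706 exon bases on opposite strands, which is 19.0% of DUOXA1 and 27.7% of DUOXA2. As the strand setting of the counting is not given, the counts of both are uncertain. DUOXA2 counts in DU145 cells were 4 with PBS and 14 with H2O2 in vector cells, and 3 and 6 in PAGE4 cells, beside 6 and 37, and 13 and 24, for DUOX2. RAC1, POLDIP2, which binds p22phox, and CYBC1, the chaperone of the CYBB and CYBA pair, were abundant, with RAC1 at 324 to 424 CPM. RAC2, the Rac GTPase of blood cells, had 88 to 158 reads in 22RV1 and 47 to 68 in DU145 cells (log2 line difference -0.62, SE 0.25, adjusted p = 0.0621, edgeR). HVCN1, a proton channel that balances the charge an oxidase moves, had 13 to 19 reads in 22RV1 and 21 to 31 in DU145 cells.

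With H2O2, 3 of the 11 partners tested fell and none rose in edgeR, beside 20.1% of all genes that passed in either direction (DESeq2 called 4, adding SH3PXD2A). RAC3, a Rac GTPase, fell by 0.81 on the log2 scale (SE 0.10, adjusted p = 0.00256, edgeR), with single pairs from -0.85 to -0.73. SH3PXD2B, which encodes the organizer TKS4, fell by 0.92 (SE 0.17, adjusted p = 0.00912, edgeR). CYBC1 fell by 0.39 (SE 0.11, adjusted p = 0.0423, edgeR), which did not hold with total counts as library sizes (adjusted p = 0.117, edgeR) or with any 1 pair left out (adjusted p from 0.0599 to 0.162, edgeR). None of the 11 partners passed for PAGE4 in edgeR, 0 had an unadjusted p under 0.05, and DESeq2 called 0.

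Between the lines, 7 of the 11 partners were higher in DU145 cells and none was lower in edgeR, beside 60.5% of all genes that passed in either direction. They were SH3PXD2B (log2 2.41), DUOXA1 (2.25), RAC3 (0.60), POLDIP2 (0.50), RAC1 (0.36), HVCN1 (1.13) and NCF1, which had 22RV1 libraries at 0. With total counts as library sizes, the calls of RAC1 (adjusted p = 0.124, edgeR), HVCN1 (0.0789) and NCF1 (0.0641) were lost, and HVCN1 also lost its call with no filter on low counts (0.0567). HVCN1 did not pass without the PAGE4 PBS, Vector H2O2 or Vector PBS pair (adjusted p from 0.0999 to 0.135, edgeR), and NCF1 did not without the PAGE4 H2O2, PAGE4 PBS or Vector PBS pair (0.0803 to 0.105). DUOX1 and DUOXA1, whose starts adjoin, were both higher in DU145 cells. The H2O2 effect differed between the lines for 3 partners. SH3PXD2A (TKS5) had 699 and 238 reads with PBS and H2O2 for the vector and 475 and 138 for PAGE4 in 22RV1 cells, and 300 and 201 for the vector and 277 and 269 for PAGE4 in DU145 cells. Its log2 ratio was -1.33 and -1.28 in 22RV1 cells and -0.40 and 0.12 in DU145 cells (difference 1.14, SE 0.26, adjusted p = 0.00561, edgeR). SH3PXD2B showed the opposite, with -0.46 and -0.59 in 22RV1 cells and -1.37 and -1.12 in DU145 cells (difference -0.76, SE 0.16, adjusted p = 0.00303, edgeR). Without DU145 PAGE4 the SH3PXD2A call was lost (adjusted p = 0.111, edgeR), and without DU145 Vector that of SH3PXD2B (adjusted p = 0.0897, edgeR).

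**Figure D5:**
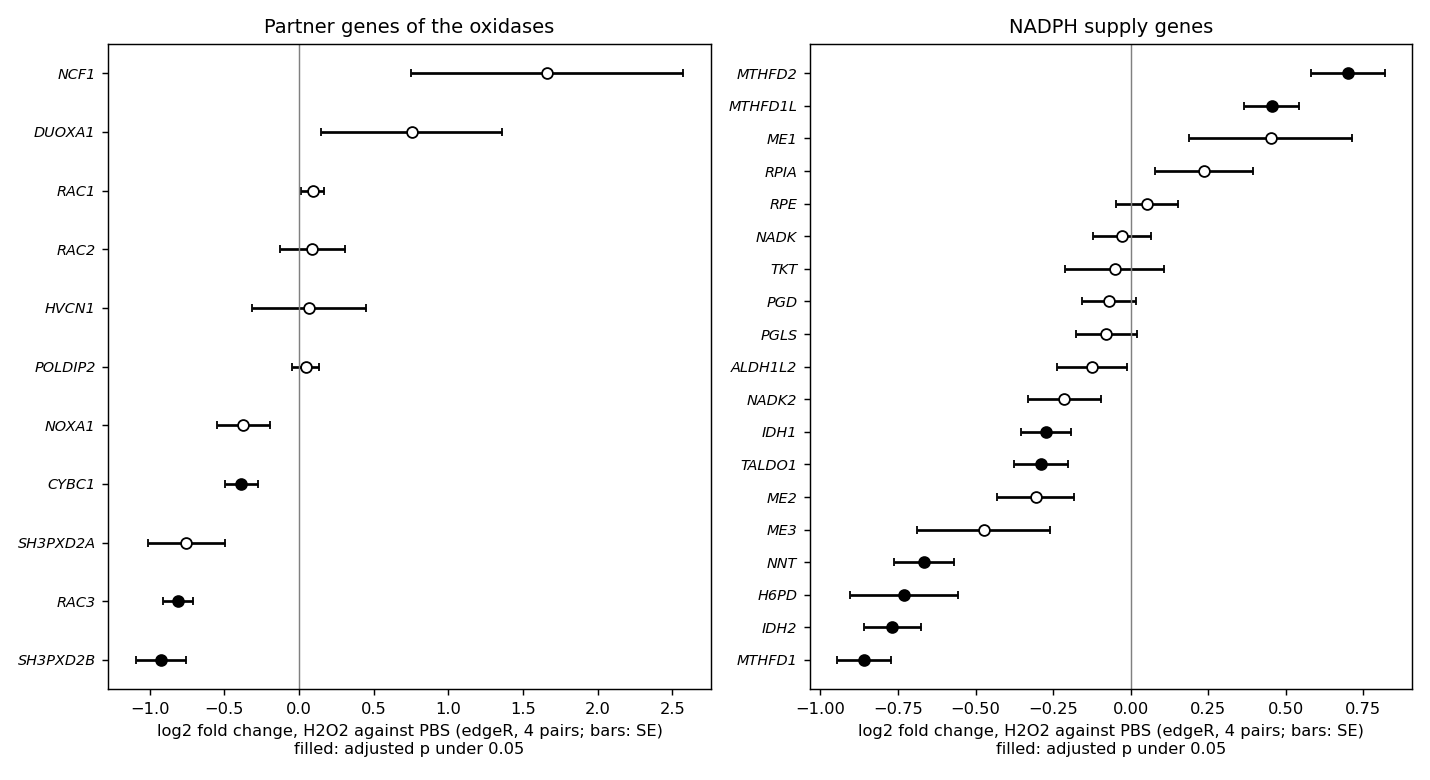
Points give the fitted log2 difference of H2O2 against PBS over the 4 pairs with its SE, for partner genes on the left and NADPH supply genes on the right; filled points passed an adjusted p of 0.05 in edgeR. Among partners the 3 filled points lie below 0, and among supply genes 6 of the 8 filled points do.

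The oxidases draw on NADPH, and 19 of the 20 NADPH supply genes listed could be tested. With H2O2, 6 fell and 2 rose in edgeR, where 20.1% of all genes passed, including MTHFD1 (log2 -0.86, SE 0.09, adjusted p = 0.00119), IDH2 (-0.77, SE 0.09, adjusted p = 0.00223) and NNT (-0.67, SE 0.10, adjusted p = 0.0044), which fell, and MTHFD2 (0.70, SE 0.12, adjusted p = 0.00775), which rose. MTHFD1 and MTHFD2 are folate enzymes of the cytosol and the mitochondrion, and IDH2 and NNT make NADPH in mitochondria. None passed for PAGE4 in edgeR, where 5 had an unadjusted p under 0.05 and DESeq2 called 0.

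The H2O2 effect on NADPH supply genes differed between the lines for 6 of 19 in edgeR, while DESeq2 called 5. Across all genes 16.3% passed in edgeR (1691 with the higher and 1964 with the lower log2 difference in DU145 cells). Of the 6, 4 had the lower log2 difference in DU145 cells, as CYBA did. TKT, a transketolase of the pentose phosphate pathway, had log2 ratios of 0.42 and 0.27 in 22RV1 cells and -0.40 and -0.38 in DU145 cells (difference -0.77, SE 0.09, adjusted p = 2.21e-05, edgeR). Malic enzyme ME1 had 0.94 and 1.41 in 22RV1 cells and -0.09 and -0.17 in DU145 cells (difference -1.31, SE 0.18, adjusted p = 5.88e-05, edgeR). As for CYBA, both TKT and ME1 were higher with H2O2 in both 22RV1 pairs and lower in both DU145 pairs. The falls of ME1 in DU145 cells (-0.09 and -0.17) were smaller than those of CYBA and TKT. H6PD, of the endoplasmic reticulum, was lower in all 4 pairs, with -0.51 and -0.14 in 22RV1 cells and -1.00 and -1.15 in DU145 cells (difference -0.78, SE 0.15, adjusted p = 0.00162, edgeR). MTHFD2 was higher with H2O2 in all 4 pairs, with 0.60 and 0.33 in 22RV1 cells and 0.95 and 1.02 in DU145 cells (difference 0.48, SE 0.11, adjusted p = 0.00507, edgeR).

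The genes whose pattern over the 8 libraries was most like that of a member were listed for CYBA, DUOX1 and CYBB, which had at least 10 reads in every library. By Pearson's r of log2(CPM + 0.5), with TMM library sizes, among genes with a mean of at least 50 reads, those nearest CYBA were FTL, a ferritin subunit (r = 0.999), CAV2 (0.999) and TP53I3 (0.998). For CYBA 2575 of 14647 genes had an r over 0.9, and the 8 points include the gap between the lines. For DUOX1 the nearest were SLC46A3 (0.998), THRA (0.995) and DDX46 (0.993), with 1360 genes over 0.9. For CYBB they were DBF4B (0.972), SFXN5 (0.972) and BOLA1 (0.967), with 57 of 14648 genes over 0.9.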

How the data were processed

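Raw RNA-seq reads were mapped by the authors to GRCh38 (hg38) with HISAT2 2.1.0 and counted per gene with featureCounts 1.6.0, per the labels and the study's methods. The deposited values are the resulting raw counts, not normalized, with the 4 libraries of a line in the same table. The strand setting and annotation release are not given in the sources used here. For RNA extraction, Trizol is named in the labels and a column kit in the methods. Each of the 8 conditions has 1 library of 25482984 to 43310401 counts, so p-values measure the spread between matched pairs of libraries.

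Counts were fitted with edgeR 4.0.16 in R 4.3.3 (quasi-likelihood test, TMM, filterByExpr) over all 8 libraries, with the 4 pairs as blocks, an interaction term for differences between lines and Benjamini-Hochberg adjustment at 0.05. Ratios of 2 libraries used DESeq2 1.42.0 size factors within a line, with Clopper-Pearson 95% intervals. Intervals, and the floor of 3 counts, cover counting error only, since reads carried no molecular identifiers. CPM are counts over the library total, scaled to 1000000. Exon lengths and coordinates come from GENCODE release 44 on GRCh38, promoters from RefSeq. The tests were tested on simulated data, in which only well covered genes were changed and the libraries were independent. That setting does not cover weak members or cultures shared between libraries.

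The members and lists were chosen with earlier results of these data known. Named genes are all members, all partners, the NADPH supply genes with the lowest adjusted p (at most 4 per fit), and the 3 genes most like each well covered member. A few genes of the lists are not reported here. CYBC1 is listed as C17orf62 in the tables. Alternatives were DESeq2 size factors, total counts, no filter, DESeq2's Wald test, no blocks, each pair left out in turn, other count minimums and a fold limit of 2. Leaving out pairs in the interaction fits was added after seeing the data.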

Additional observations from a re-analysis of the deposited data

Results flagged for a closer look

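The following genes had an H2O2 effect that differed between the lines by the interaction test of edgeR, given as the log2 difference of DU145 against 22RV1 cells. Among the members this was CYBA (-1.43, adjusted p = 0.00074), which was higher with H2O2 in both 22RV1 pairs and lower in both DU145 pairs. Among the partners it was SH3PXD2A (1.14, adjusted p = 0.00561), SH3PXD2B (-0.76, adjusted p = 0.00303) and NCF1 (-5.70, adjusted p = 0.0422). The NCF1 value was fitted against 22RV1 PBS libraries at 0 reads, so it depends on the fit and is no measure of size, and it did not pass with DESeq2's Wald test (adjusted p = 0.133) or in edgeR with any 1 pair left out. Among the NADPH supply genes 6 passed, namely TKT (-0.77, adjusted p = 2.21e-05), ME1 (-1.31, adjusted p = 5.88e-05), H6PD (-0.78, adjusted p = 0.00162), MTHFD2 (0.48, adjusted p = 0.00507), ME3 (-0.92, adjusted p = 0.00823) and RPIA (0.61, adjusted p = 0.0284), from edgeR as well, of which ME3 and RPIA were named after their values were seen. DESeq2's Wald test called 5 of these 6 supply genes, all but RPIA. For ME3 and RPIA no fits with a pair left out or with other library sizes were kept. Each line was 1 set of transduced cultures, so differences between the lines and between these cultures cannot be told apart.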

How the results depend on the processing

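The 144 alternatives to the ratios of members between 2 libraries all stayed within the counting interval, and no ratio called over 1.5-fold changed direction. Counting intervals are wide for weak members, so this is a loose check, and it did not ask whether a ratio stayed over 1.5-fold. With total counts, the H2O2 ratios of NOX5 and DUOX1 in 22RV1 PAGE4 cells did not reach that limit. For ratios below that limit the direction was not checked. Of 258 alternatives to the fitted values of members, 232 kept direction and call, 9 lost the call (4 of DUOX1 for H2O2 and 3 of CYBB between lines by leaving out a pair, and 1 of each with total counts) and 17 changed sign, none of them in a value that passed. Alternatives were also read for the partners that passed and, per fit, for at most 4 NADPH supply genes with the lowest adjusted p. Of these 181 alternatives, 159 kept the call and none changed sign. Other supply genes that passed, and all supply genes in the line comparison, are not among them. Total counts shifted the median of all genes by -0.20 (log2) between the lines and by less than 0.1 elsewhere, and relative to that shift the difference of CYBB was close to its value with TMM.

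The sign changes were these, on the log2 scale, with ranges over the pairs left out in turn. The H2O2 effect on CYBA ranged from -0.16 to 0.41. The PAGE4 effect ranged from -0.25 to 0.12 for NOX5, with 0.0036 for DESeq2 size factors, and from -0.082 to 0.10 for DUOX1. The line difference in H2O2 effect ranged from -0.15 to 0.28 for DUOX1, with -0.0037 for total counts, from -0.51 to 0.73 for CYBB, with 0.016 for no filter and 0.045 for DESeq2, and from -0.016 to 1.35 for NOX5. The line difference in PAGE4 effect ranged from -0.36 to 0.054 for CYBA, from -1.07 to 0.67 for DUOX2 and from -1.21 to 0.15 for NOX5. The causes were not tested.

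Without 1 pair, the genes passing numbered 1974 to 3880 for H2O2, 10 to 76 for PAGE4, 11705 to 12078 between lines, 2121 to 4252 for the line difference in H2O2 effect and 244 to 1240 for that in PAGE4 effect. The H2O2 count moved by over 1.5 times without 22RV1 Vector (2281), DU145 PAGE4 (2268) or DU145 Vector (1974), and the PAGE4 count without the 22RV1 PBS pair (10) or the DU145 H2O2 pair (76). The line difference in H2O2 effect did so without DU145 PAGE4 (2121) or DU145 Vector (2320), and that in PAGE4 effect without the 22RV1 PBS pair (1240) or the DU145 PBS pair (244). The PAGE4 count of 39 was 483 without a filter, 73 with DESeq2's Wald test and 5 without blocks, and the 413 genes whose PAGE4 effect differed were 806 without a filter.

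Counts of genes over 1.5-fold moved with the limits, which change the genes tested. In the order of the 4 H2O2 pairs (22RV1 Vector, 22RV1 PAGE4, DU145 Vector, DU145 PAGE4) and the 4 PAGE4 pairs (22RV1 PBS, 22RV1 H2O2, DU145 PBS, DU145 H2O2), they were 20838, 17403, 19522, 19375, 16007, 16603, 14133 and 14519 with no count minimum, 4302, 3090, 4593, 4764, 1220, 1779, 653 and 610 with a mean of at least 50, and 3741, 2987, 3354, 3417, 1939, 2209, 1178 and 1216 with a fold over 2. No paired analysis by replicate number was possible because each condition has 1 library. Depth limits what can be read of NOX1, NOX4 and DUOX2, with at most 40 reads per library.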
